A study of Mus musculus with 30 samples.

Results

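Chromatin accessibility around Gata3 and Rora was examined in mouse T cells by ATAC-seq, in which a transposase cuts open chromatin and the cut fragments are sequenced. The members were chosen by position: every peak of the 26-library table of normalized scores whose nearest protein-coding gene body, within 100 kb, was Gata3 or Rora. That rule gave 55 of 69316 peaks, of which 16 belonged to Gata3 and 39 to Rora. Peaks are numbered within each locus by increasing mm10 coordinate, so Gata3-1 is the peak farthest downstream of Gata3 and Rora-39 is the one nearest the end of Rora.

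The 26 libraries formed 13 groups of 2. CD4+ cells from lymph nodes and spleen of C57BL6/J mice carrying a Foxp3-IRES-hCD2 reporter, in which human CD2 marks Foxp3-expressing cells, were sorted into regulatory T cells (WT Treg, CD4+hCD2+) and conventional T cells (Tconv, CD4+hCD2-). BATFKO Treg were CD4+hCD2+ cells of the same reporter on a Batf-/- background. Central Treg (cTreg) were gated as CD4+hCD2+CCR7hiCD62LhiCD44lo and effector Treg (eTreg) as CD4+hCD2+CCR7loCD62Llo. Their hCD2- counterparts were naive T cells (Tnaive, CCR7hiCD62LhiCD44lo) and effector T cells (Teff, CCR7loCD62Llo). The Foxp3 mutant comparison used CD4+hCD2+GFP- Treg from Foxp3R397W-IRES-hCD2/Foxp3-IRES-GFP mice and from Foxp3WT-IRES-hCD2/Foxp3-IRES-GFP controls, so both came from mice that also carried a GFP-marked Foxp3 allele, which the sorted cells did not express. The double-knockout (DKO) cells carried Foxp3KO-IRES-hCD2 and Batf-/- in all 4 arms and were given a mock virus, a Foxp3 virus (Foxp3RV), a BATF virus (BATFRV) or both (Foxp3BATFRV). They were sorted as hCD2+ CD4+ cells that were also GFP+Thy1.1+ and CD45.2+ but CD45.1-. The names of the DKO libraries also carry the word vivo, and how these cells were handled before sorting is not given here. Open chromatin does not show whether Foxp3 or BATF protein was present, so the knockouts themselves were not checked here. The labels give no strain for the DKO cells and no ages, and nothing says that the 2 libraries of a group came from separate animals, so p-values reflect how 2 libraries of a group vary, which may be technical.

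GATA3 is a zinc-finger transcription factor that is required for CD4 T cell development and directs type 2 helper differentiation. It is also expressed by Treg, above all by activated and tissue-resident ones, where it helps to keep Foxp3 expression stable. Rora encodes RORα, a nuclear receptor that binds DNA as a monomer and is known from type 2 innate lymphoid cells, type 17 helper cells and Treg of skin and other tissues. Foxp3 is the lineage factor of Treg, and BATF is an AP-1 family factor that pairs with IRF4 during T cell activation and effector differentiation.

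Names of libraries differ between the deposited tables, and this bears on every result from 6 of the groups. Of the 18 libraries held by both the 26-library and the 22-library table, matched on 4478 peaks with identical coordinates, 6 carry the same name and 12 carry another. Libraries called eTreg and Tnaive here are called wild-type controls of the Foxp3 mutants in the smaller table, those called cTreg and Teff are called Foxp3R397W and Foxp3KO, and those called Foxp3WT and Foxp3R397W here are called cTreg and eTreg there. Under the names used here, the summed score of the 5 peaks at Foxp3 was 108 in Tnaive and 52.1 in Teff, against 559 in eTreg and 644 in cTreg; it was 105 in Tconv and 613 in WT Treg. The 12 renamed libraries were ATAC under one name and omniATAC, a variant protocol with another lysis and enzyme, under the other, so tests were made only within comparisons, and levels set side by side across sets are descriptions in which protocol and group cannot be told apart. The names of the 26-library table do not say which of the control pairs the Foxp3WT libraries are. They were read as the pair of Foxp3R397W.

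Depth ranged from 3716499 to 25462278 reads in peaks per library, and the shallowest libraries were the 2 of Tconv. All values here are normalized scores, that is, read counts in a peak divided by 1 factor per library, and changes are differences of log2(score + 1) tested with limma over all 69316 peaks. A peak is called higher or lower at a Benjamini-Hochberg adjusted p under 0.05. The median SE of a difference was 0.34 on the log2 scale, and fold changes of low peaks are understated by the added 1. In bulk libraries a larger share of cells with an open site and a more open site per cell cannot be told apart. CD4 T cell marker loci (Cd4, Cd3e, Cd3g, Cd5) were open in every library, with summed scores from 2447 to 3010 in the 7 groups titled ATAC and from 4928 to 8831 in the others. Among markers of other cells, no peak was assigned to the B cell genes Cd79a and Ms4a1 or to Csf1r, Fcer1a and Hba-a1.

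The promoters are shown because the loci differ there: a peak covered the annotated Gata3 start but none lay near the annotated Rora start. Only the RefSeq promoter start was used for each gene, and other starts, also inside the gene body, were not examined. Both sequences are from RefSeq (GRCm38.p6) and give the 250 bases before the annotated start, 5′ to 3′ on the gene's strand. The Gata3 window is chr2:9878601-9878850 on the minus strand and the Rora window is chr9:68653536-68653785 on the plus strand. Capitals mark bases that lie inside a peak (Gata3-12).
Gata3: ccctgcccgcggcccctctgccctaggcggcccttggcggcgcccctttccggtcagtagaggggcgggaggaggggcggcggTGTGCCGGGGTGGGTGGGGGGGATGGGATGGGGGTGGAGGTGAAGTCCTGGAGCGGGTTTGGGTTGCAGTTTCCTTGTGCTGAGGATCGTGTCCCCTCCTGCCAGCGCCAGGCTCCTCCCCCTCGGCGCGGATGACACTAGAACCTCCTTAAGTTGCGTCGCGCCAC
Rora: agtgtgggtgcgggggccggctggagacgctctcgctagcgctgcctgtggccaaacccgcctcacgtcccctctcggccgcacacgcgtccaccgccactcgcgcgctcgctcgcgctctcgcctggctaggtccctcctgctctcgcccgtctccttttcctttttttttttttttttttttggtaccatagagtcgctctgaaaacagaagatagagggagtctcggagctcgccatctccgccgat

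In the Gata3 window 167 of 250 bases lay in Gata3-12 (chr2:9878367-9878767), and in the Rora window 0 did; 35.3% of all 32851 RefSeq promoter windows overlapped a peak. GC content was 70.0% with 19 CpG for Gata3 and 61.2% with 26 CpG for Rora, against a median GC of 52.4% over all windows. Neither window held a match on either strand to the 7 motifs searched. These were the zinc-finger word AGATAA (in 9.99% of all windows), the AP-1 and BATF word TGANTCA (6.75%), the forkhead words TGTTTAC and TGTTTGC (7.29% for either), the RORα word TAGGTCA (2.23%), the Ets word ACAGGAAG (2.9%), the Runx word TGTGGTTT (1.49%) and the Stat word TTCNNNGAA (7.02%).

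The peaks were laid out differently at the 2 genes. Gata3 (chr2:9857078-9887953, minus strand) is 30.9 kb long, with 6 peaks in its body, 3 upstream and 7 downstream, the farthest of them, Gata3-1, 96946 bases past its end. Rora (chr9:68653404-69388246, plus strand) spans 735 kb, and all 39 of its peaks lay inside the gene body. The first of them began 231 kb past the start of the body, so none marked the annotated promoter. The widest gap between neighbouring Rora peaks was 115 kb, between Rora-24 and Rora-25. It separates 24 peaks on the side of that annotated promoter (promoter side) from 15 towards the 3′ end. This split is by position but was adopted after the values were seen, so it is a description. Non-coding genes overlapped some peaks: Gm46153 overlapped 2 peaks of the 3′ group (Rora-27 and Rora-28), Gm15511 another 3, Gm31262 2 of the promoter-side group, and 9230102O04Rik 1 at Gata3.

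**Figure D1:**
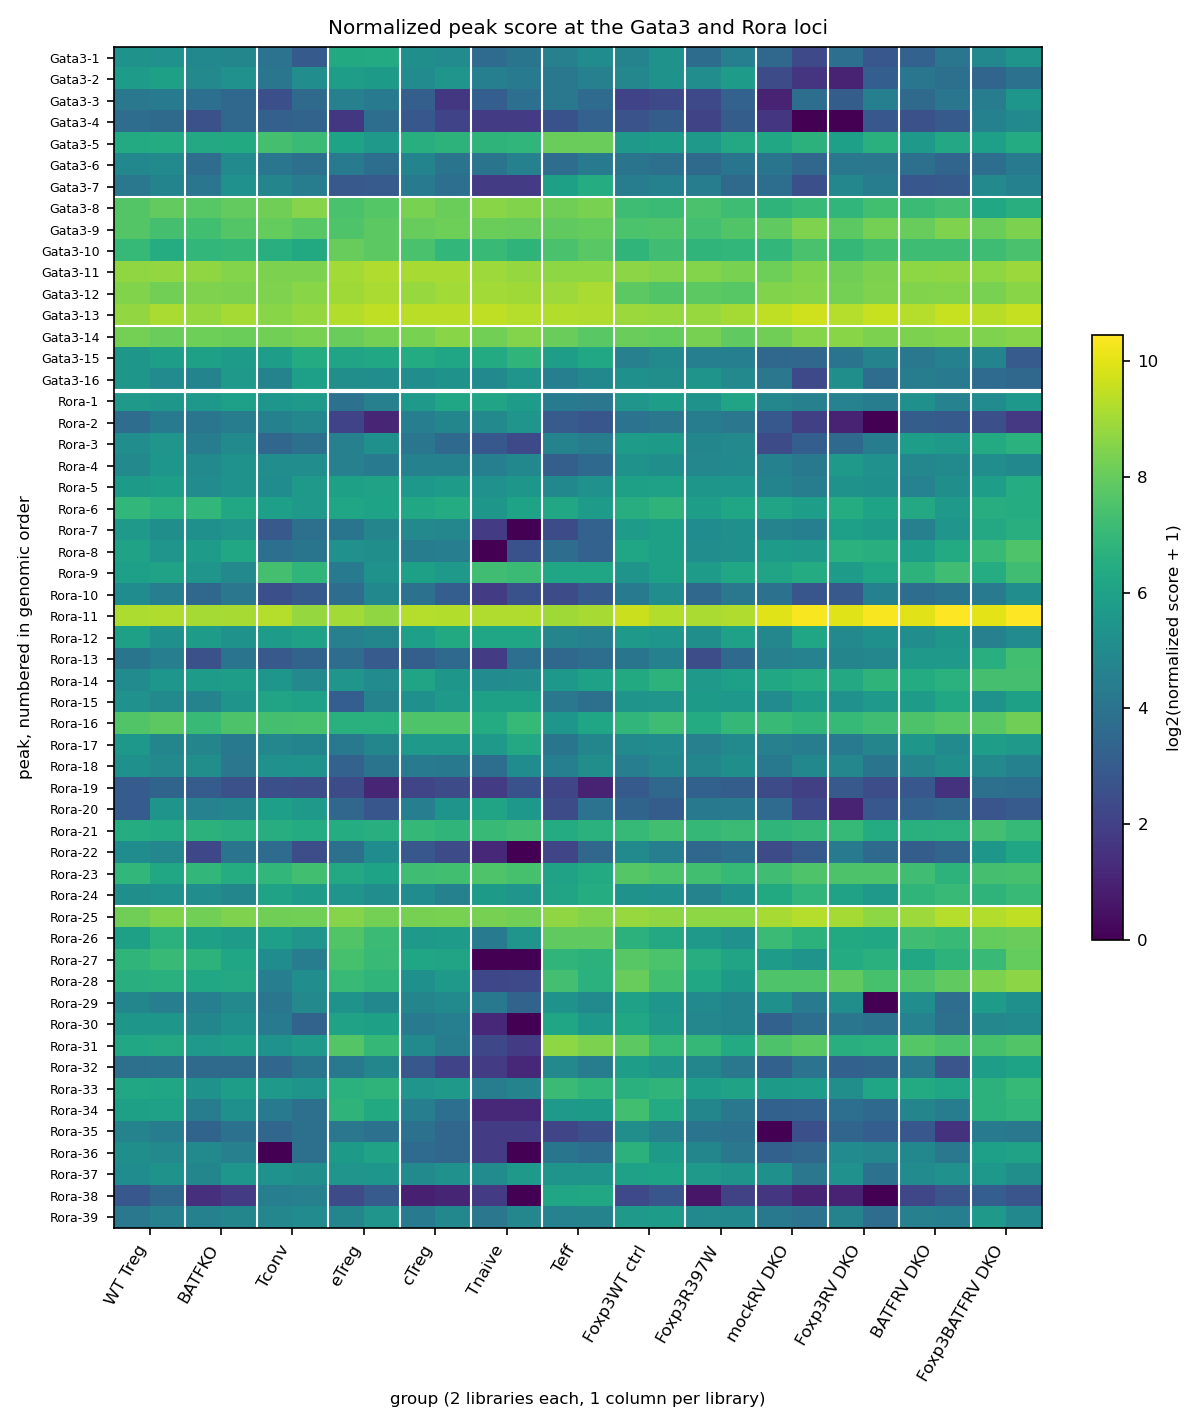
Normalized score of each of the 55 peaks (one line per peak, in genomic order) in each of the 26 libraries (columns, 2 per group), coloured by log2(score + 1); white lines separate the groups and the parts of each locus. Gata3-11 to Gata3-14 are bright in all groups, whereas Rora-27 has a score of 0 in both Tnaive columns.

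At Gata3 the promoter and the strong peaks around it were open in every group. Gata3-12, over the start, scored 516 and 494 in the Tnaive libraries, 462 and 515 in cTreg, 497 and 556 in eTreg, and 481 and 556 in Teff. In WT Treg it scored 356 and 296, in BATFKO Treg 341 and 330, and in Tconv 345 and 386. The libraries of these groups overlapped within every comparison made among them. In the other sets Gata3-12 scored 223 and 193 in the Foxp3WT controls, 224 and 211 in Foxp3R397W, and between 310 and 387 in the 8 DKO libraries. Its largest difference in any comparison of 2 groups was 0.17 on the log2 scale, and its 95% interval for eTreg against cTreg ran from -0.21 to 0.43 (adjusted p = 0.63). The neighbouring Gata3-13 had the highest Gata3 scores, from 389 in a Tconv library to 824 in a mock DKO library, and was called in no comparison. Gata3-14 lay 10.9 kb upstream of the start used here but only 1380 bases beyond the annotated gene body. It was called only lower in Teff than in Tnaive, by -0.44 ± 0.17 (SE, adjusted p = 0.043). Gata3-11, inside the gene, was called higher with both viruses than with the mock virus, by 0.46 ± 0.15 (adjusted p = 0.028). Both calls were lost with edgeR, at adjusted p = 0.069 and 0.0745. Of the 16 Gata3 peaks, 6 were called in no comparison, and the summed Gata3 score lay between a mean of 1994 in Foxp3WT controls and 3085 in cTreg.

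Change at Gata3 was found mostly in peaks downstream of the gene and in the intragenic Gata3-8, Gata3-10 and Gata3-11. Apart from Gata3-5 (mean score 97.8), the downstream peaks had mean scores under the median of all peaks (48.6). Gata3-1 (chr2:9759732-9760132) scored 80.9 and 83.1 in eTreg, 22.6 and 33.3 in Teff, 35.5 and 32.0 in cTreg, and 11.5 and 15.5 in Tnaive. It was thus highest in eTreg, without overlap with the other 3 groups. The difference was 1.26 ± 0.46 between eTreg and cTreg (adjusted p = 0.030) and 1.54 ± 0.46 between eTreg and Teff (adjusted p = 0.017), but the first was lost when any of the 4 libraries was left out, and the second without either eTreg library or Teff library 1 (adjusted p from 0.0835 to 0.168). Gata3-1 was also higher in WT Treg (39.1 and 37.8) than in Tconv (14.7 and 6.82), by 1.83 ± 0.46 (adjusted p = 0.0041), a call lost without Tconv library 2 (adjusted p = 0.104). Gata3-8, in the gene body, moved the other way: it scored 176 and 208 in eTreg against 324 and 277 in cTreg, a change of -0.64 ± 0.19 (adjusted p = 0.0083). It was lower too in eTreg than in Teff (287 and 327), by -0.67 ± 0.19 (adjusted p = 0.013), and in WT Treg than in Tconv, by -0.57 ± 0.19 (adjusted p = 0.032). Gata3-10, also in the body, was higher in both effector groups, at 259 and 222 in eTreg against 172 and 121 in cTreg and at 173 and 216 in Teff against 129 and 111 in Tnaive. These differences were 0.73 and 0.69, each ± 0.23 (adjusted p = 0.011 and 0.015). The Gata3-8 calls were lost without eTreg library 1 or cTreg library 1, eTreg library 1 or Teff library 2, and WT Treg library 1 or Tconv library 2, and the Gata3-10 calls without eTreg library 1 or cTreg library 2 and without Tnaive library 2 or Teff library 2.

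A pair of downstream Gata3 peaks separated effector Treg from effector conventional cells. Gata3-5 (chr2:9801523-9801923) scored 266 and 268 in Teff, 110 and 118 in Tnaive, 91.5 and 107 in cTreg, and 66.5 and 48.0 in eTreg. It was highest in Teff and lowest in eTreg, and it rose by 1.23 ± 0.27 from Tnaive to Teff (adjusted p = 0.00053) but fell by 0.80 ± 0.27 from cTreg to eTreg (adjusted p = 0.021, lost without eTreg library 2 or cTreg library 2). This was the sole member peak of 55 with opposite calls in the 2 effector steps, and the steps differed by -2.02 ± 0.38 (adjusted p = 0.0016). Gata3-7 (chr2:9848302-9848702), 8376 bases past the end of the gene, scored 60.1 and 87.1 in Teff but 19.6 and 13.2 in cTreg, 6.65 and 7.02 in eTreg, and 2.55 and 2.59 in Tnaive, where it rested on 4 reads in all. Teff alone stood high. The difference between eTreg and Teff was -3.23 ± 0.47 (adjusted p = 8.6e-06) and that between the effector steps -5.49 ± 0.66 (adjusted p = 3.4e-06).

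**Figure D2:**
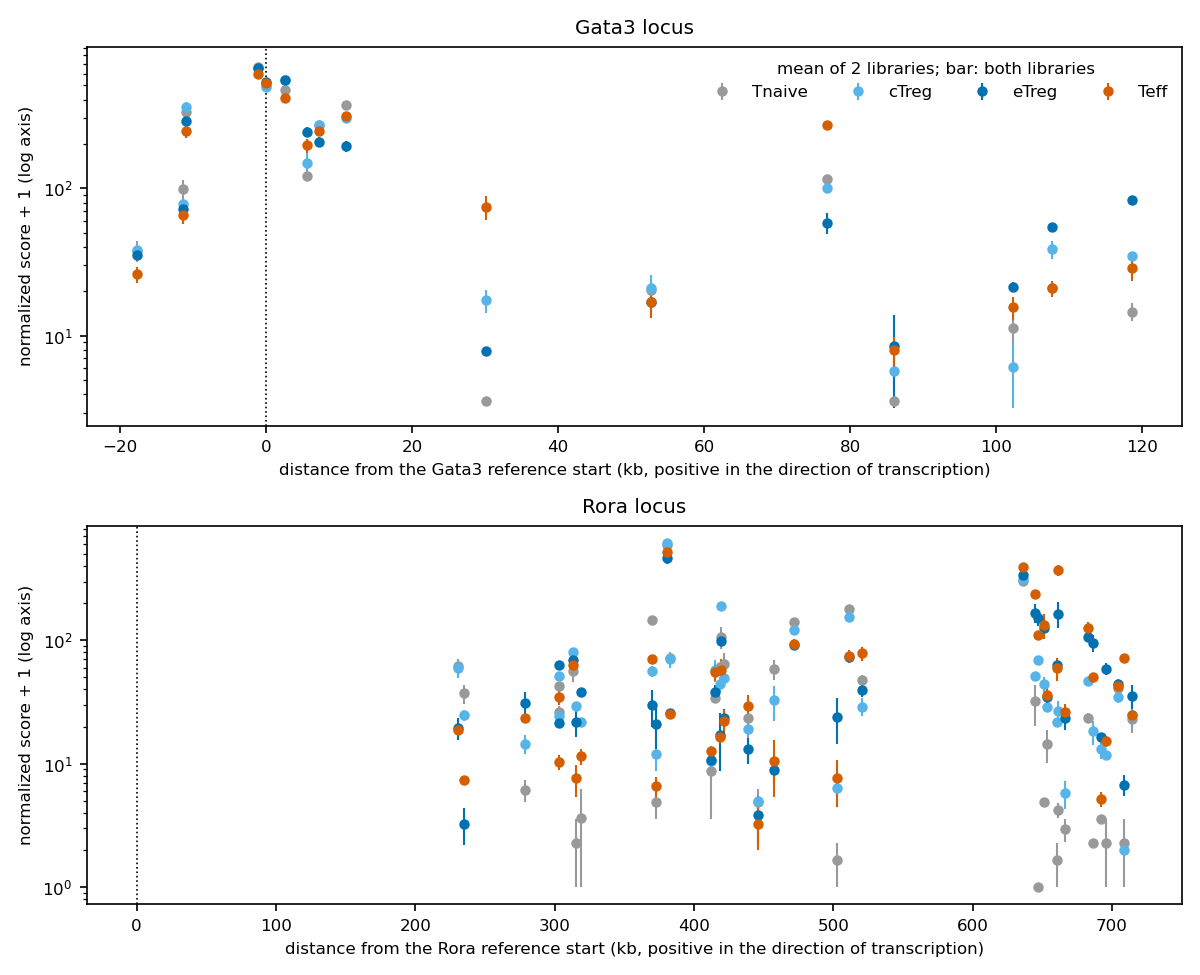
Score + 1 (log axis) of each peak against its distance from the annotated start in kb, for Tnaive, cTreg, eTreg and Teff; points are means of 2 libraries and bars reach both libraries. Near the Gata3 start the 4 groups coincide, whereas Rora peaks beyond the 115-kb gap spread apart, as at Rora-31, with means of 3.21 in Tnaive and 369 in Teff.

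At Rora the summed scores of the 2 groups of peaks moved in opposite directions with effector state, while single promoter-side peaks went both ways. The split was adopted after the values were seen, so this contrast is a description. Summed over the 15 peaks of the 3′ group, scores were 1550 and 1289 in eTreg against 691 and 713 in cTreg, and 1820 and 1560 in Teff against 438 and 459 in Tnaive. Over the 24 promoter-side peaks they were 1226 and 1222 in eTreg against 1743 and 1771 in cTreg, and 1153 and 1324 in Teff against 1704 and 1810 in Tnaive. In both parts and both steps the libraries of the groups did not overlap. By peak, eTreg against cTreg called 26 of 55 member peaks, 15 higher and 11 lower, where 37.1% of all peaks were called, 19.7% higher and 17.4% lower. Of the 3′ group 10 of 15 were higher and 0 lower, with a median difference of 1.52 against 0.03 over all peaks. In the promoter-side group 2 of 24 were higher and 9 lower, with a median of -0.51. Quantile scaling gave 11 member peaks higher and 14 lower, and leaving out eTreg library 1 or cTreg library 2 gave a count of 17 in place of 26.

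Teff against Tnaive gave a like layout. There, 31 member peaks were called, 19 higher and 12 lower, where 40.3% of all peaks were called, 20.7% higher and 19.6% lower. The 3′ group had 10 of 15 higher and 0 lower with a median of 3.00, and the promoter-side group 6 of 24 higher and 11 lower with a median of -0.46. In the 3′ group 10 peaks were higher in both effector groups, and in the promoter-side group 9 were lower in both. Over both loci, 13 of the 15 peaks higher in eTreg were among the 19 higher in Teff (86.7% and 68.4% of each), beside 70.4% and 66.8% over all peaks. Of the 11 lower in eTreg, 9 were among the 12 lower in Teff (81.8% and 75%), beside 71.4% and 63.3%. Calls shared by both steps were thus common over all peaks as well. The marker loci differed as well: the 4 peaks of the B cell gene Pax5 summed to 317 to 322 in eTreg against 58.7 to 93.7 in cTreg and to 249.5 to 263.9 in Teff against 25.5 to 44.1 in Tnaive, while the CD8 loci (Cd8a, Cd8b1) summed to 114 to 133 in eTreg against 538.5 to 544 in cTreg. Loci of the innate lymphoid and mast cell list (Kit, Cpa3, Il9r; Fcer1a has no peak) summed to 2739 to 2868 in eTreg and 3543 to 3705 in cTreg. The part of other cells in these results was not tested.

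**Figure D3:**
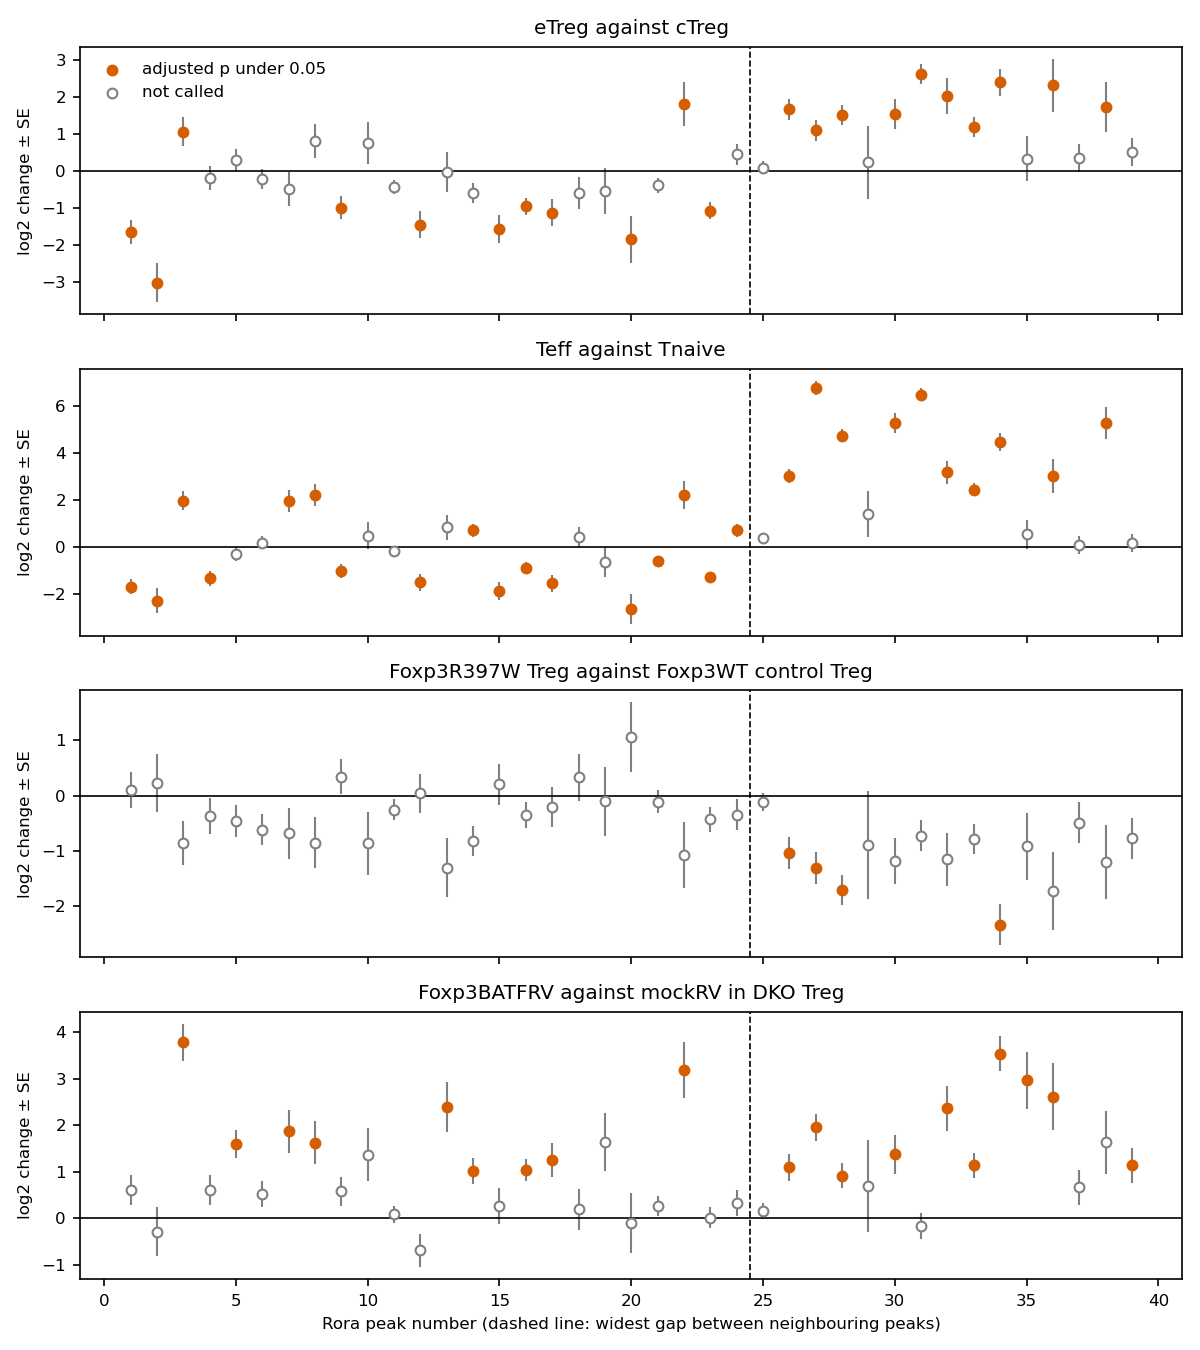
Log2 change with its SE (vertical axes) at each of the 39 Rora peaks in genomic order (horizontal axis) for eTreg against cTreg, Teff against Tnaive, Foxp3R397W against Foxp3WT control Treg and both viruses against the mock virus in DKO Treg; filled points passed an adjusted p under 0.05. Right of the dashed line, at the 115-kb gap, 10 peaks are filled and above 0 in the first, the second and the last panel, and 4 are filled and below 0 in the third.

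Within the 3′ group, Rora-31 (chr9:69314483-69314883) scored 3.83 and 2.59 in Tnaive, 31.1 and 19.8 in cTreg, 203 and 124 in eTreg, and 408 and 331 in Teff. These groups followed one another without overlap. The rise was 2.63 ± 0.28 from cTreg to eTreg (adjusted p = 1.4e-08) and 6.46 ± 0.28 from Tnaive to Teff (adjusted p = 1.4e-16), and Teff exceeded eTreg by 1.21 ± 0.28 (adjusted p = 0.0024), a call lost without eTreg library 2 (adjusted p = 0.105). Set side by side over all 13 groups, with the limit on protocols given above, Rora-31 was highest in Teff, followed by mock, BATFRV and Foxp3BATFRV DKO cells, Foxp3WT controls and eTreg, whose libraries overlapped their neighbours in that order, and it was lowest in Tnaive.

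Rora-27 (chr9:69300260-69300660) had no read in either Tnaive library, so its score there was 0. It scored 70.2 and 67.2 in cTreg, 170 and 130 in eTreg, and 112 and 105 in Teff. With 3 reads per library taken as the limit for a count of 0, it was at least 28.1-fold higher in Teff and at least 17.8-fold higher in cTreg than in Tnaive. That limit covers counting error only. The rise from cTreg to eTreg was 1.10 ± 0.29 (adjusted p = 0.0036). It was lost without eTreg library 1 (adjusted p = 0.064).

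Rora-34 (chr9:69339891-69340291) scored 1.28 and 1.30 in Tnaive, from 2 reads, and 21.3 and 13.2 in cTreg, 47.9 and 50.9 in Teff, and 109 and 79.6 in eTreg. In contrast to Rora-31, its highest values here were in eTreg. It rose by 2.40 ± 0.37 from cTreg to eTreg (adjusted p = 6.5e-06) and by 4.46 ± 0.37 from Tnaive to Teff (adjusted p = 9.0e-11), and eTreg and Teff differed by 0.90 with a 95% interval from 0.14 to 1.66 (adjusted p = 0.10). Rora-38 (chr9:69362046-69362446) was a Teff peak: its libraries scored 69.7 and 73.4 there, 4.43 and 7.02 in eTreg, 2.55 and 0 in Tnaive, and 0.889 and 1.10 in cTreg. Outside Teff its highest values were in Tconv (21.2 and 22.7). The difference between eTreg and Teff was -3.46 ± 0.67 (adjusted p = 0.00040).

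The remaining called peaks of the 3′ group rose in both steps. From cTreg to eTreg, Rora-26, Rora-28, Rora-30, Rora-32, Rora-33 and Rora-36 rose by 1.19 to 2.32, and from Tnaive to Teff by 2.43 to 5.26. The first of these calls was lost for Rora-36 without eTreg library 2 or cTreg library 2, and that of Rora-38 when any of the 4 libraries was left out. Rora-30 is named here after its values were seen. Rora-25, at the edge of the gap, scored between 286 and 423 in the 14 libraries of the ATAC-named groups and was called in neither step. This peak and Rora-11 (418 to 1397 over all libraries) had high scores throughout, and both were picked for mention after their values were seen.

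On the promoter side, Rora-1 and Rora-2, the first peaks of the gene, were lower in both effector groups. Rora-1 (chr9:68884457-68884857) scored 14.4 and 22.2 in eTreg against 48.9 and 69.4 in cTreg, and 19.2 and 16.6 in Teff against 67.7 and 53.1 in Tnaive. The groups did not overlap in either step, and the changes were close in size, at -1.65 and -1.69, each ± 0.33 (adjusted p = 0.00018 and 0.00012). Rora-2 (chr9:68888789-68889189) fell by 3.02 ± 0.53 and by 2.30 ± 0.53 in the same comparisons (adjusted p = 3.3e-05 and 0.00073). Its libraries scored 3.32 and 1.17 in eTreg and 21.3 and 26.5 in cTreg. Rora-20 fell by 1.83 ± 0.64 and by 2.64 ± 0.64 (adjusted p = 0.023 and 0.0012), the first of which was lost without eTreg library 2 or cTreg library 2 and the second without Teff library 1. Rora-9, Rora-12, Rora-15, Rora-16, Rora-17 and Rora-23 made up the other falling peaks common to both steps. Rora-3 and Rora-22 went against their neighbours and were higher in both effector groups. Rora-3 (chr9:68932616-68933016) scored 22.2 and 37.5 in eTreg against 16.0 and 11.0 in cTreg, and 24.4 and 20.5 in Teff against 6.39 and 3.89 in Tnaive. Its changes were 1.06 ± 0.39 (adjusted p = 0.033, lost without eTreg library 2 or cTreg library 2 and, at 0.131, with quantile scaling) and 1.96 ± 0.39 (adjusted p = 0.00017). The Rora-22 calls were lost with quantile scaling (adjusted p = 0.0681 and 0.198), the first also without eTreg library 2 or cTreg library 2, and the second without Teff library 2 or Tnaive library 2 and with only the groups compared (0.0589).

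The size of the effector step, taken as eTreg minus cTreg less Teff minus Tnaive, differed from 0 at 9 member peaks, 0 higher and 9 lower, where 3.91% of all peaks were called, 1.18% higher and 2.72% lower. A lower value means a smaller rise, or a deeper fall, in Treg. The 3′ group held 6 of them (Rora-27, Rora-28, Rora-30, Rora-31, Rora-34 and Rora-38), with differences from -2.06 to -5.67. In the same group cTreg already exceeded Tnaive at 8 of the 15 peaks. That count uses the cTreg and Tnaive libraries that also enter the difference of steps, so it is not a separate result. At Rora-34 the difference of -2.06 ± 0.53 (adjusted p = 0.020) was lost with a pseudocount of 5 (adjusted p = 0.247), quantile scaling (0.147) and edgeR (0.0615). It was also lost in 4 of 8 fits that left out a library. At Rora-38 the value of -3.54 ± 0.95 (adjusted p = 0.029) was lost with edgeR (0.34) and in 7 of 8 fits that left out a library. The starting groups had 0 to 6 reads per peak in Tnaive at these 6 peaks, so the sizes depend on the added 1 and are no bounds.

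Resting Treg and naive cells differed mostly by higher Rora peaks in Treg. Against Tnaive, cTreg had 14 member peaks higher and 1 lower, where 16.6% of all peaks were called, 8.80% higher and 7.82% lower. Rora held 13 of the 14, with 5 on the promoter side and 8 in the 3′ group, and the remaining one was Gata3-7. Rora-28 (chr9:69304546-69304946) scored 37.3 and 49.6 in cTreg and 3.83 and 3.89 in Tnaive. The difference was 3.18 ± 0.27 (adjusted p = 5.5e-10). Rora-8 (chr9:68972310-68972710) scored 20.4 and 20.9 in cTreg and 0 and 5.18 in Tnaive, from 4 reads. The difference was 3.12 ± 0.46 (adjusted p = 9.8e-06). Its neighbour Rora-7, named after its values were seen, differed by 3.96 ± 0.46 (adjusted p = 1.6e-07). Rora-9 (chr9:69023327-69023727) was the lower peak, with 60.4 and 49.6 in cTreg against 149 and 140 in Tnaive, a change of -1.39 ± 0.31 (adjusted p = 0.0016). Marker loci differed here too: the NK cell list (Ncr1, Klrb1c, Klrd1) summed to 1395 to 1590 in cTreg against 2242 to 2452 in Tnaive, the myeloid list to 197 to 211 against 368 to 492, and Pax5 to 58.7 to 93.7 against 25.5 to 44.1. Within the NK cell list Klrd1 had means of 47.2 and 350. The innate lymphoid and mast cell list summed to 3543 to 3705 in cTreg against 3304 to 3542 in Tnaive. Its genes were divided, with means of 508 and 109 for Kit, 1057 and 914 for Cpa3, and 2059 and 2400 for Il9r. The part of other cells in this result was not tested.

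Unsorted by activation, WT Treg had 12 member peaks higher and 3 lower than Tconv, where 20.0% of all peaks were called, 10.1% higher and 9.92% lower. The count of 15 dropped to 9 without Tconv library 1 or without WT Treg library 1. Rora-27 scored 115 and 132 in WT Treg and 32.7 and 20.4 in Tconv, and Rora-28 scored 95.3 and 98.0 against 21.2 and 34.1. Both pairs were well apart, with differences of 2.21 ± 0.29 (adjusted p = 2.1e-06) and 1.81 ± 0.27 (adjusted p = 1.3e-05). Rora-36 (chr9:69349546-69349946) differed most, by 3.13 ± 0.71 (adjusted p = 0.0021), but scored 0 in Tconv library 1 and lost the call without it (adjusted p = 0.171). Rora-9 was lower in Treg here too, at 58.7 and 63.3 against 163 and 114 (-1.15 ± 0.31, adjusted p = 0.0075), a call lost without WT Treg library 1 or Tconv library 1. Rora-31 differed by 0.77 ± 0.28 between WT Treg and Tconv and missed the threshold (adjusted p = 0.051). Pax5 summed to 165 to 191 in WT Treg against 84.1 to 86.5 in Tconv, the NK cell list to 1029 to 1070 against 1575 to 1667, and the myeloid list to 193 to 225 against 340 to 382. The innate lymphoid and mast cell list summed to 3147 to 3227 against 2799 to 2949. Its genes were divided, with means of 625 and 199 for Kit, 623 and 603 for Cpa3, and 1940 and 2073 for Il9r. The part of other cells in this result was not tested.

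Effector Treg and effector conventional cells differed at 14 member peaks, 7 higher and 7 lower in eTreg, where 17.5% of all peaks were called, 8.40% higher and 9.07% lower. With edgeR on DESeq2 size factors the split was 12 higher and 7 lower. The count fell to 6 without eTreg library 2 and to 8 without eTreg library 1 or Teff library 1. In the 3′ group 0 peaks were higher and 2 lower (Rora-31 and Rora-38). Promoter-side peaks were divided, 5 higher and 2 lower: Rora-8 scored 37.7 and 36.3 in eTreg against 12.2 and 8.80 in Teff (1.74 ± 0.46, adjusted p = 0.0077), and Rora-9 scored 18.8 and 38.6 against 69.7 and 70.4 (-1.34 ± 0.31, adjusted p = 0.0022). Each of these calls was lost without eTreg library 1, and that of Rora-8 also without Teff library 2. Rora-9 was therefore lower on the Treg side in all 3 Treg to conventional comparisons. Of these, eTreg against Teff and cTreg against Tnaive share no library with WT Treg against Tconv. Marker loci differed between eTreg and Teff too. The CD8 loci summed to 114 to 133 in eTreg against 51.9 to 70.5 in Teff. Pax5 summed to 317 to 322 against 249.5 to 263.9, and the myeloid list to 220 to 229 against 316 to 317. The innate lymphoid and mast cell list summed to 2739 to 2868 against 2138 to 2246. The NK cell and erythroid lists overlapped. The part of other cells in this comparison was not tested.

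**Figure D4:**
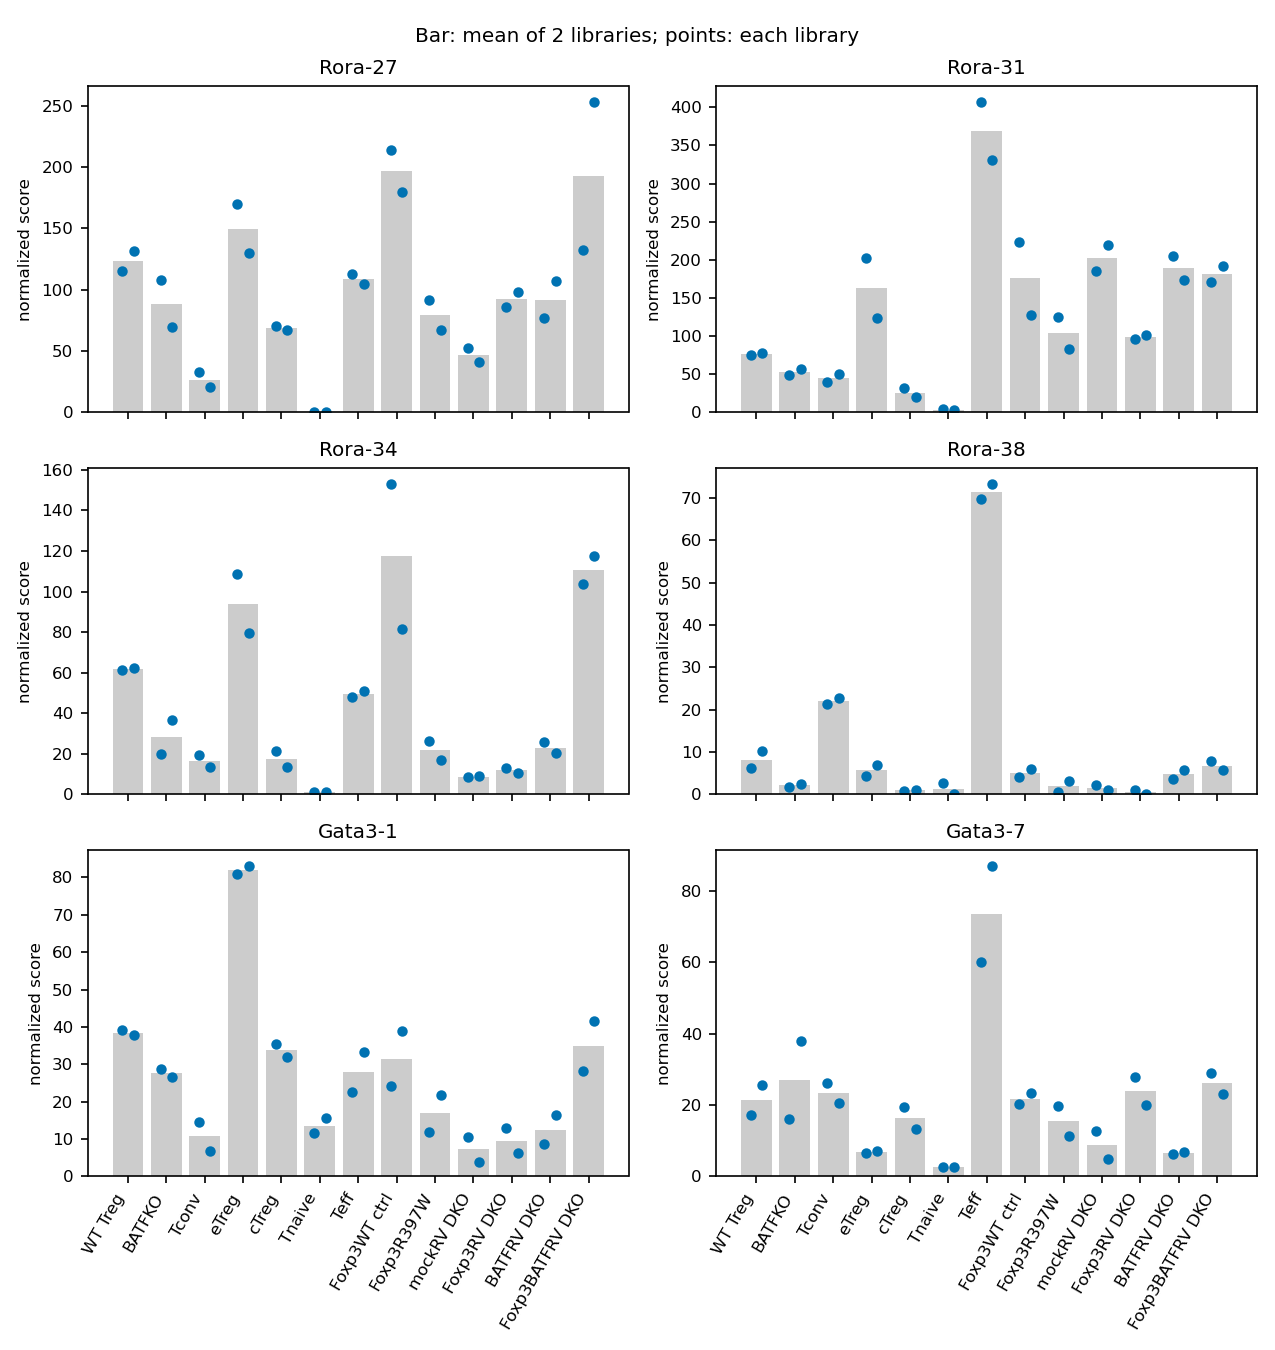
Normalized score (vertical axes) in each of the 13 groups (horizontal axis) at 4 Rora and 2 Gata3 peaks; bars are means of 2 libraries and points the libraries. Rora-38 and Gata3-7 stand high in Teff (means of 71.5 and 73.6), and Rora-34 is high in the Foxp3WT controls, Foxp3BATFRV DKO cells and eTreg (means of 117, 111 and 94.1).

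Loss of BATF alone gave no member call: 0 of 55 peaks differed between BATFKO and WT Treg with limma, where 1.49% of all peaks did, 0.0620% higher and 1.43% lower. An unadjusted p under 0.05 was reached at 5 member peaks, all at Rora, and edgeR called 2, both lower in BATFKO. These were Rora-22 and Rora-34. Rora-34 scored 19.9 and 36.6 in BATFKO against 61.1 and 62.3 in WT Treg, and Rora-22 (chr9:69156177-69156577) scored 3.87 and 15.2 against 33.0 and 27.6. In neither peak did the libraries overlap. The differences were -1.16 with a 95% interval from -1.92 to -0.40 (adjusted p = 0.16) and -1.81 with an interval from -3.05 to -0.57 (adjusted p = 0.19). At Rora-31 the difference was -0.53, with an interval from -1.10 to 0.04. At the Gata3 promoter peak it was 0.05, with an interval from -0.27 to 0.36.

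In Foxp3R397W Treg 4 member peaks were lower than in Foxp3WT controls and 0 higher, where 2.63% of all peaks were called, 1.85% lower and 0.776% higher. All 4 lay in the 3′ group of Rora. Rora-34 scored 26.4 and 16.9 in Foxp3R397W against 153 and 81.6 in the controls, Rora-28 scored 73.7 and 50.5 against 262 and 157, and Rora-27 scored 91.2 and 67.1 against 214 and 180. The mutant libraries were below the control libraries at each of them, and the changes were -2.35 ± 0.37, -1.72 ± 0.27 and -1.31 ± 0.29 (adjusted p = 0.00059, 0.00059 and 0.011). Rora-26 changed by -1.04 ± 0.29 (adjusted p = 0.045), a call that was lost when any of the 4 libraries was left out. Over the 15 peaks of the 3′ group the median change was -1.04 against 0.03 over all peaks, while over the 16 Gata3 peaks it was -0.06 with 0 called. Pax5 summed to 114 to 141 in the mutant against 181 to 203 in the controls and the CD8 loci to 315 to 373 against 243 to 258, and their part was not tested. The count was 0 without control library 1 (Rora-34 at adjusted p = 0.0555 and Rora-28 at 0.0543), 2 without control library 2 or mutant library 2, 12 with edgeR, and 14 when those 2 groups were fitted alone. Over all 69316 peaks edgeR called 2241 higher and 4112 lower, and the fit of those 2 groups alone 2403 and 4168, beside 538 and 1283 in the reported fit. With the names of the 22-library table the comparison of libraries so named called 29 member peaks. Those libraries are the ones called cTreg and eTreg here, and the libraries used here are named cTreg and eTreg there.

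In DKO Treg, few member peaks were called with a single factor and more with both together, and the same held over all peaks. Foxp3RV against the mock virus called 0 of 55 with limma, where 1.82% of all peaks were called, 1.01% higher and 0.814% lower; an unadjusted p under 0.05 was reached at 15, and edgeR called 1, a lower Rora-31. That peak scored 95.7 and 101 with Foxp3RV against 186 and 220 with the mock virus (-1.03 ± 0.28, adjusted p = 0.051). Without mock library 1 or Foxp3RV library 1 the count was 2, and without mock library 2 it was 1. BATFRV against the mock virus called 3 higher and 0 lower, where 3.49% of all peaks were called, 3.20% higher and 0.291% lower. They were Rora-3, Gata3-2 and Rora-34, and 1 was called when either BATFRV library was left out. Rora-3 scored 56.9 and 49.9 with BATFRV against 4.22 and 7.82 with the mock virus. The gap between these groups was wide, 3.00 ± 0.39 (adjusted p = 6.0e-06). Gata3-2 differed by 2.0 ± 0.48 (adjusted p = 0.012) from 6 reads in the mock libraries, a call lost in 3 of 4 fits that left out a library. Rora-34 differed by 1.31 ± 0.37 (adjusted p = 0.043). Its call was lost in all 4 such fits and in 6 of 8 other alternatives, among them edgeR (adjusted p = 0.114).

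With both viruses 25 member peaks were higher and 0 lower than with the mock virus, where 23.3% of all peaks were called, 12.9% higher and 10.5% lower. The calls comprised 10 of 15 peaks of the 3′ Rora group, 9 of 24 on the promoter side, 5 of 7 downstream of Gata3 and 1 of 6 in the Gata3 body. Rora-34 scored 104 and 117 with both viruses, 26 and 20.2 with BATFRV, 12.9 and 10.7 with Foxp3RV, and 8.43 and 8.80 with the mock virus. Only the arm with both viruses was far above the rest, by 3.54 ± 0.37 over the mock virus (adjusted p = 2.7e-08), 2.22 ± 0.37 over BATFRV (adjusted p = 0.00012) and 3.12 ± 0.37 over Foxp3RV (adjusted p = 3.8e-07). Rora-3 scored 82.5 and 102 with both viruses, and its difference from BATFRV was 0.78 with a 95% interval from -0.03 to 1.58 (adjusted p = 0.215). Rora-31 scored 171 and 192 and overlapped the mock libraries, with a difference of -0.16 and an interval from -0.73 to 0.42 (adjusted p = 0.75). Rora-13, named after its values were seen, scored 96.1 and 157 with both viruses, above the other 6 DKO libraries.

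Downstream of Gata3, Gata3-4 (chr2:9792388-9792788) scored 23.3 and 31.1 with both viruses, 4.95 and 6.72 with BATFRV, 0 and 6.14 with Foxp3RV, and 2.11 and 0 with the mock virus. The mock value came from 2 reads. Both libraries that received the 2 factors lay above the other 6 DKO libraries. Gata3-4 was named by a rule that required no overlap with the mock and Foxp3RV libraries, so that separation is no support. Its mean score over all libraries was 7.59, under the first quartile of all peaks (22.8). The difference from the mock virus was 3.98 ± 0.76 (adjusted p = 0.00020), a size that depends on the added 1. Gata3-1 rose to 28.2 and 41.5 from 10.5 and 3.91 (2.22 ± 0.46, adjusted p = 0.00046), and Gata3-3 and Gata3-2 rose by 2.54 ± 0.68 and 1.68 ± 0.48 (adjusted p = 0.0058 and 0.010), both lost without Foxp3BATFRV library 2, and further without mock library 1 for Gata3-3 and mock library 2 for Gata3-2. The promoter peak Gata3-12 scored 325 and 387 with both viruses against 356 and 374, a difference of -0.04 with a 95% interval from -0.36 to 0.28.

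Against BATFRV alone, both viruses gave 11 member peaks higher and 1 lower, where 14.1% of all peaks were called, 7.08% higher and 7.01% lower. Against Foxp3RV alone they gave 24 higher and 1 lower, where 18.1% of all peaks were called, 10.6% higher and 7.54% lower. The lower peak was Gata3-8 in both, at 76.7 and 93.3 with both viruses against 140 and 161 with BATFRV and 116 and 154 with Foxp3RV. The libraries did not overlap (-0.82 ± 0.19 and -0.65 ± 0.19, adjusted p = 0.0035 and 0.015). Both calls were lost without Foxp3BATFRV library 1, the first also without BATFRV library 2, and the second without Foxp3RV library 2 and, at adjusted p = 0.165, with only the groups compared. The first count fell from 12 to 4 without Foxp3BATFRV library 2, to 6 without BATFRV library 1 and to 7 without Foxp3BATFRV library 1. The second fell from 25 to 10 without Foxp3BATFRV library 2 and to 13 without Foxp3RV library 2. These comparisons share the Foxp3BATFRV libraries. The joint change exceeded the sum of both single changes at 1 member peak, Rora-32, where 1.09% of all peaks were called, 0.586% higher and 0.506% lower. Rora-32 (chr9:69320037-69320437) scored 57.3 and 65.6 with both viruses, 17.3 and 5.76 with BATFRV, 8.61 and 9.21 with Foxp3RV, and 8.43 and 14.7 with the mock virus. The excess was 2.78 ± 0.69 (adjusted p = 0.043) and was lost in 5 of 8 fits that left out a library, with 0 to 3 member peaks called among them.

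Marker loci differed across the DKO arms too. Myeloid loci (Lyz2, Itgam, Cd14) summed to 877 to 1087 with both viruses against 420 to 551 with the mock virus, Pax5 to 393 to 442 against 182 to 191, the NK cell list to 2146 to 2178 against 2399 to 2663, and the erythroid list (Gata1, Klf1) to 549 to 592 against 745 to 766. The part of other cells in these results was not tested. Peaks higher in eTreg and with both viruses overlapped: 12 of the 15 higher in eTreg were among the 25 higher with both viruses (80.0% and 48.0% of each), beside 40.2% and 61.5% over all peaks. The comparisons share no library. Of the 11 lower in eTreg, 2 were among those 25, a count given without a share over all peaks. No member peak at all was lower with both viruses, so no overlap of lower peaks could arise.

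Other genes of these programs are given for context by their called peaks. Among 64 peaks at 12 type 2 and tissue Treg genes, 30 were higher and 3 lower in eTreg than in cTreg, with a median difference of 1.15, where 19.7% of all peaks were higher and 17.4% lower. Teff against Tnaive gave 29 higher and 7 lower at these genes, with a median of 0.99. Il1rl1, the IL-33 receptor, had 7 of 12 peaks higher, Pparg, a nuclear receptor of tissue Treg, 5 of 6, and Areg, a repair factor, 4 of 5. With both viruses 18 of the 64 were higher and 3 lower. At 10 partners and regulators of Gata3 (203 peaks) eTreg had 44 higher and 47 lower, divided by gene: Maf, a type 2 and follicular factor, had 13 of 14 higher, whereas Tcf7, a factor of naive cells, had 9 of 17 lower and Il4ra, a receptor chain for IL-4, 6 of 10 lower. With both viruses Tcf7 had 15 of 17 lower. Among 54 peaks at 10 ROR relatives and ROR-linked genes, 15 were higher and 8 lower in eTreg. In Foxp3R397W Treg the counts were 0 higher and 5 lower, 0 and 2, and 3 and 0 in these 3 lists.

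Genes flanking the loci are given for comparison. Vps13c, 656 kb before Rora, had 0 of 6 peaks called in either effector step, and Ice2, 9.66 kb beyond its end, had 1 of 4 higher in eTreg, 2 of 4 higher in Teff and 0 called with both viruses. Beside Gata3, Taf3 (26.6 kb away) had 3 of 12 higher and 1 lower in eTreg, and Celf2, 2461 kb away on the other side, 15 of 38 higher and 2 lower. Over the 13 group means of mean log2 score, the patterns most like that of Rora among 7920 other genes with at least 3 peaks were those of Ugt1a8 and Ugt1a9, which share peaks (Pearson r = 0.93), Eml1 (0.93), Ppp2r5d and Ugt1a10 (0.91). For Gata3 they were Greb1l (0.96), Etv6 and Filip1 (0.95), and Zfp945 and Fam174a (0.94). These 13 points differ also in protocol and depth, so the values are descriptive.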

How the data were processed

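ATAC-seq was used, and all values come from the authors' deposited table of normalized peak scores for 26 libraries on mm10, a signal that is never negative. The submitters' processing notes name edgeR (3.36.0, also 3.38.4), DiffBind (3.0.15, also 3.4.11), the peak caller MACS2 2.2.7.1 and the aligner Bowtie2 2.4.1, without settings. Scores of each library were whole read counts times 1 factor (100% whole to within 0.02 reads). Peaks were assigned to RefSeq protein-coding genes with bedtools 2.31.1. Groups were compared with limma 3.58.1 in R 4.3.3 on log2(score + 1), in 1 fit of 13 groups (13 residual degrees of freedom, trend and robust options), adjusted over 69316 peaks, in 14 comparisons. The test was checked on simulated reads, where limma made more false calls than edgeR in WT Treg against Tconv, whose libraries are shallow. Errors are SEs of the fit. Members, lists and tests were chosen with earlier results of these data known. Named peaks were those at a gene start, the 6 per locus with the widest range of group means above the median score, and the largest non-overlapping call per comparison, locus and direction; others are marked in the text. Where a peak was named as the largest non-overlapping call, its lack of overlap in that comparison follows from the rule. Of the 55 members 12 had a mean score under the first quartile of the table and were kept. Alternatives were edgeR 4.0.16 on the recovered reads, DESeq2 1.42.0 size factors, quantile scaling, a pseudocount of 5, a 1.5-fold minimum, fewer groups or peaks, each library left out, and the 22-library table, once with its names and once, chosen after seeing the data, with those of the 26-library table. The genome sequence was not used here, so motifs were counted in promoter windows only and exon or intron positions are not given.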

Additional observations from a re-analysis of the deposited data

Results flagged for a closer look

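A limma interaction term tested whether the change from resting to effector cells was of equal size on the Treg and conventional sides, and it was called at 9 peaks. At Gata3 these were Gata3-5 (-2.02) and Gata3-7 (-5.49). At Rora they were Rora-7 (-2.43), Rora-27 (-5.67), Rora-28 (-3.21), Rora-30 (-3.72), Rora-31 (-3.84), Rora-34 (-2.06) and Rora-38 (-3.54), all as Treg minus conventional on the log2 scale. The calls at Rora-34 and Rora-38 were lost in 4 and 7 of 8 fits that left out a library. Rora-27 rose by 1.10 from cTreg to eTreg and by a fitted 6.77 from Tnaive, where it had 0 reads, to Teff. At Rora-7 the Treg value was -0.49 (adjusted p = 0.45 with limma) and the conventional one 1.94 (adjusted p = 0.0010 with limma). Gata3-5 fell in Treg and rose in conventional cells.

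At Rora-32 the change with both viruses in DKO Treg differed from the sum of the changes with each alone by 2.78 on the log2 scale, again by a test of the difference. This call was lost in 5 of 8 fits that left out a library.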

How the results depend on the processing

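Counts below are member peaks called, beside the reported counts. The calls over all 69316 peaks moved with the setting as well, so a changed count is no result about the members by itself. With quantile scaling, WT Treg against Tconv called 10519 higher and 9677 lower over all peaks, beside 7012 and 6878 in the reported fit. BATFKO called 504 and 2007, beside 43 and 989. With edgeR, Foxp3R397W called 2241 and 4112, beside 538 and 1283. With quantile scaling, WT Treg against Tconv gave 23, BATFKO 2, both viruses against Foxp3RV 13 and the excess over the sum 0. Against a minimum 1.5-fold change the counts were 5 (WT Treg against Tconv), 8 (eTreg against cTreg), 8 (cTreg against Tnaive), 3 (eTreg against Teff), 1 (Foxp3R397W), 1 (BATFRV), 13, 3 and 5 (both viruses against the mock virus, BATFRV and Foxp3RV) and 0 (excess). EdgeR, with TMM or DESeq2 size factors, gave 2 for BATFKO, 12 for Foxp3R397W, 1 for Foxp3RV and 2 for the excess. Fitting only the groups compared gave 14 for Foxp3R397W, 1 for BATFRV, 13 for both viruses against Foxp3RV and 0 for the excess. A pseudocount of 5 gave 1 for Foxp3RV and 4 for the excess, and without peaks under the first quartile of mean score the excess was 0, since that filter removes Rora-32. In the 22-library table under its own names the counts were 7 (eTreg against cTreg), 13 (Teff against Tnaive), 0 (cTreg against Tnaive), 0 (eTreg against Teff), 0 (difference of effector steps), 1 (BATFKO) and 29 (Foxp3R397W); under the names of the 26-library table cTreg against Tnaive gave 25 and Foxp3R397W 4. By the matched libraries, the 29 compared those called cTreg and eTreg in the 26-library table, and the 7 those called Foxp3R397W and Foxp3WT there. The cause of the remaining differences was not tested.

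Leaving out 1 library gave 9 to 14 for WT Treg against Tconv, 17 to 21 for eTreg against cTreg, 24 to 28 for Teff against Tnaive, 10 to 13 for cTreg against Tnaive, 6 to 10 for eTreg against Teff, 6 to 9 for the difference of effector steps, 0 to 0 for BATFKO, 0 to 3 for Foxp3R397W, 0 to 2 for Foxp3RV, 1 to 3 for BATFRV, 18 to 23, 4 to 8 and 10 to 19 for both viruses against the mock virus, BATFRV and Foxp3RV, and 0 to 3 for the excess. A lone library was assumed to vary like those of other groups.

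Replicate numbers do not pair libraries by any label, and same-numbered deviations correlated at 0.04 to 0.33. With the replicate block 127 of 127 named calls kept their side of the threshold, and the counts moved by over 1.5 times for Foxp3RV (1) and the excess (2) only. Named calls that missed the threshold under an alternative, of 127, were 67 (1.5-fold minimum), 23 (quantile scaling), 16 (groups compared only), 11 (edgeR), 7 (DESeq2 size factors) and 6 (pseudocount of 5), with 1 of 94 without peaks under that quartile; no named call reversed in these, under the replicate block or with a library left out. Single calls were not compared with the 22-library table. Depth limits weak peaks most, with 0 to 6 reads in Tnaive at several 3′ Rora peaks.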
